A study of Arabidopsis thaliana with 44 samples.

Results

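Leaves collected 52 h after treatment with salicylic acid (leaf 52 h) were compared with untreated leaves of 21-day plants on Affymetrix ATH1 microarrays of Arabidopsis thaliana. The groups compared held 4 of the 21 Affymetrix microarrays and 4 of the 44 samples in the series. They were chosen by their labels: leaf 52 h A and B, and untreated leaf A and B. Technical spread was estimated over all 21 microarrays. Of the 22810 probe sets on a microarray, 64 were controls, and the other 22746 were compared. The remaining Affymetrix microarrays measured leaves 4 h after salicylic acid, callus, root, silique and inflorescence, and the inflorescences of 4 mutants of flower development (ap1-10, sup/ap1, ap3-6 and agamous). Silique was measured on a single microarray, and every other RNA sample on A and B. Since A and B repeat the measurement of a single RNA sample, each leaf group stands for 1 RNA sample, and the tests set a difference against technical error only, never against variation between plants. Differences due to the plants, the day or the hour of collection cannot be told apart from the treatment. The labels give no dose, way of application or mock treatment, and they do not give the age of the treated plants or say whether plants were pooled.

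Salicylic acid is a plant defense hormone that accumulates in leaves attacked by pathogens that feed on living tissue. It is sensed by the NPR proteins, which act with TGA and WRKY transcription factors to switch on genes such as those of pathogenesis-related proteins, and it is known to counteract the jasmonate branch of defense. Much of the hormone is stored as glucosides in the vacuole. An external treatment can be followed by early and later phases of gene expression. A probe set is a group of short probes for 1 transcript, or for several where its name ends in _s_at or _x_at. The sources used here do not pair probe sets with genes, so results are given by probe set, no gene of these pathways is named, and leaf marker genes could not be checked.

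Many probe sets differed between leaf 52 h and untreated leaf by more than technical error. With limma, 5170 of 22746 probe sets (22.7%) had a Benjamini-Hochberg adjusted p under 0.05, and are called here. Of these, 2395 were higher at 52 h (10.5% of all) and 2775 were lower (12.2%). With each microarray centred on its median the balance turned, to 2616 higher and 2467 lower, so neither direction clearly prevailed. The median log2 difference over all probe sets was −0.07. The median standard error (SE) of the log2 difference was 0.20 among called probe sets and 0.30 among all. Before adjustment, 7486 probe sets had a p under 0.05.

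Probe sets that were called and also differed by over 2-fold are the base of the rest of this account. They numbered 2748 (12.1% of all), of which 1348 were higher at 52 h (5.93%) and 1400 were lower (6.15%), or 1463 higher and 1282 lower with centring. The counts in the 2 directions stayed close as the limit was raised, with 534 higher and 470 lower over 4-fold, and 216 higher and 188 lower over 8-fold. Over 16-fold there were 80 higher and 76 lower. Beyond that the higher side was longer, with 32 against 25 probe sets over 32-fold and 18 against 3 over 64-fold. Such folds rest on a low signal on one side. The 18 probe sets over 64-fold had a median signal of 1849 at 52 h, against 11.5 in untreated leaf, and the 3 lower ones had 3.79 at 52 h, against 453 in untreated leaf.

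Technical replicates agreed well where probe sets were bright. The log2 ratio of leaf 52 h A over untreated leaf A was set against the same ratio of the B microarrays. Their Pearson's correlation was 0.427 over all probe sets (Spearman 0.435), and 0.847 over those whose mean log2 signal exceeded the median. Of 2637 probe sets over 2-fold higher in pair A, 55.1% were also over 2-fold higher in pair B, where 15.3% of all probe sets were. Among the 1148 of them with a signal of at least 200 on the brighter of the 2 A microarrays, this share was 74.9%. For decreases chosen in pair A the share was lower. Of 4422 probe sets over 2-fold lower in pair A, 36.9% were also over 2-fold lower in pair B (11.7% of all probe sets), and 1551 had a ratio of the opposite sign there. For the 1326 of them with at least 200 on the brighter of the 2 A microarrays, the share was 61.6%. Pair A held more decreases than increases over 2-fold, while pair B held fewer (11.7% against 15.3% of all probe sets). In both pairs, 1452 probe sets were over 2-fold higher and 1630 over 2-fold lower. The shares thus depended on the pair in which probe sets were chosen, and agreement is not read as lower for decreases. Replicates A and B differed by a median absolute log2 value of 0.23 at 52 h and 0.34 in untreated leaf, so the untreated leaf was the less repeatable of the samples compared.

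**Figure D1:**
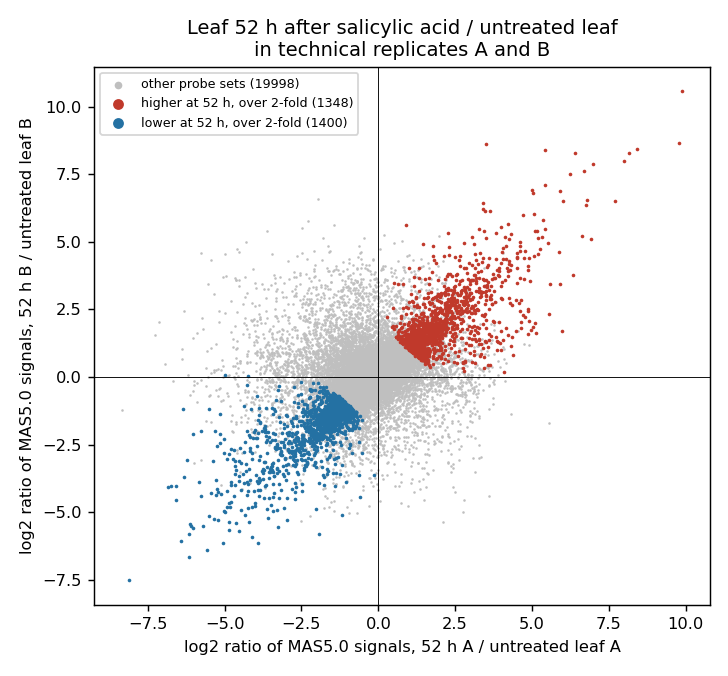
Log2 ratio of MAS5.0 signals, leaf 52 h over untreated leaf, in technical replicate A (x axis) and B (y axis), with each point a probe set. Red points are the 1348 called and over 2-fold higher at 52 h and blue points the 1400 called and over 2-fold lower. Both lie along the diagonal, while the other probe sets scatter in all directions around 0. Calls were made on these same microarrays, so this pattern follows from the choice and is no evidence of agreement.

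Calls were more frequent among brighter probe sets. Probe sets were divided by mean log2 signal over all 21 microarrays into 4 groups of about the same size. From the dimmest to the brightest group, 5.26%, 19.3%, 30.7% and 35.7% were called at 52 h. Differences over 2-fold were distributed otherwise, and were most frequent in the second dimmest group, where 496 probe sets were higher (8.72%) and 458 were lower (8.05%). In the brightest group, 349 were over 2-fold higher (6.14%) and 325 lower (5.71%). Small differences in dim probe sets were therefore not detectable on these microarrays. Probe sets with the plain ending _at were called in 23.0% of cases, and the 126 ending in _x_at, which can bind several transcripts, in 3.97%. Of the 935 ending in _s_at, 95 (10.2%) were called higher and 75 (8.02%) lower, against 10.5% and 12.2% of all probe sets.

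The largest increase was that of probe set 247718_at. Its signal was 7724 and 7637 on leaf 52 h A and B, against 8.12 and 5.02 on untreated leaf A and B. Both microarrays at 52 h were thus far above both microarrays of untreated leaf, whose values lie among the dimmest on the array. The log2 difference was 10.23 (SE 0.23, limma adjusted p = 2.44e-13). The signal 4 h after salicylic acid was 664 and 530, between that of untreated leaf and that at 52 h, and the 52 h level was above it (log2 difference 3.69, SE 0.23, limma adjusted p = 3.19e-08). The transcript was bright in tissues without treatment. Its signal was 22071 in silique and 6086 to 12990 in the inflorescences, against 95.1 and 121 in root and 31.3 and 21.2 in callus. The level at 52 h was therefore within the range of untreated inflorescences, and untreated leaf was the lowest of the 11 RNA samples.

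Probe set 247717_at had the next largest increase. Its signal was 14746 and 15372 on leaf 52 h A and B, against 16.7 and 38.0 on untreated leaf A and B (log2 difference 9.22, SE 0.29, limma adjusted p = 5.94e-12). At 4 h it was 1719 and 1486, again between both. The other 15 microarrays ranged from 1099 in root A to 22355 in silique, so untreated leaf was the only RNA sample in which this probe set was dim. The 52 h minus 4 h log2 difference was 3.24 (SE 0.29, limma adjusted p = 9.96e-07). Both increases depended on the low signals of untreated leaf for their size. With 32 added to every signal, which damps the noise of dim values, the log2 differences were 7.64 for 247718_at and 8.01 for 247717_at, and the order of the pair was reversed.

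The largest decrease was in probe set 266353_at, which was 1.92 and 2.89 on leaf 52 h A and B, against 533 and 527 on untreated leaf A and B (log2 difference −7.81, SE 0.64, limma adjusted p = 2.43e-07). This probe set was brightest in root, at 9625 and 11535, and was also near the bottom of the scale in callus, at 2.32 and 2.08. At 4 h it was 18.3 and 1.78, already far under the untreated leaf, and the difference between 52 h and 4 h was not called (log2 difference −1.27, SE 0.64, limma adjusted p = 0.203). Probe set 247474_at followed, at 5.07 and 5.38 on leaf 52 h A and B, against 364 and 543 on untreated leaf A and B (log2 difference −6.41, SE 0.44, limma adjusted p = 2.98e-08). Its signal at 4 h was 41.6 and 57.8. Unlike 266353_at, it was called lower at 52 h than at 4 h (log2 difference −3.23, SE 0.44, limma adjusted p = 6.1e-05). Untreated leaf was its brightest RNA sample, since the other 15 microarrays ranged from 22.0 to 186. With 32 added to every signal, the log2 differences were −4.03 for 266353_at and −3.68 for 247474_at.

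**Figure D2:**
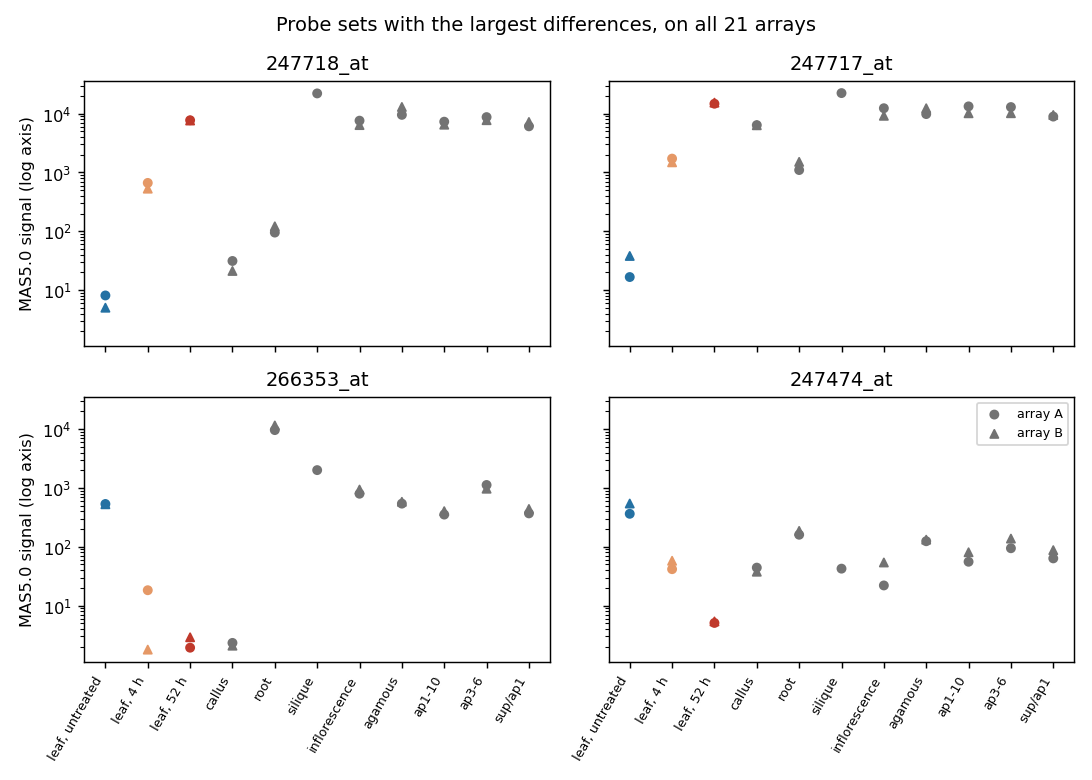
MAS5.0 signal (log axis) of 247718_at, 247717_at, 266353_at and 247474_at on each of the 21 microarrays, with circles for A and triangles for B. Blue marks untreated leaf, orange 4 h and red 52 h after salicylic acid, and grey the other RNA samples. The signals of 247718_at and 247717_at at 52 h (7637 to 15372) lay near those of silique and inflorescences, while 266353_at at 52 h (1.92 and 2.89) lay near callus.

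In 17 probe sets the signal was at least 500 on both microarrays at 52 h, against at most 50 on both microarrays of untreated leaf. These limits were chosen after the data had been seen, so the counts are descriptions. The median signal of the 17 was 1222 at 52 h, against 25.1 in untreated leaf, and single microarrays ranged from 514 to 15372 at 52 h, against 3.30 to 43.3 in untreated leaf. In 7 of the 17 (41.2%), no RNA sample other than leaf reached 500, while this was so for 4.57% of the 6212 probe sets that had at least 500 on both microarrays at 52 h. The 6212 were not also limited to 50 in untreated leaf. A limit of that kind by itself favours transcripts of narrow expression, so nothing is read from the contrast of these shares. Elsewhere the 17 were spread, with 7 reaching 500 in ap1-10, 6 in ap3-6, 5 each in callus, agamous and sup/ap1, 3 each in inflorescence and silique, and 2 in root. At 4 h, 8 of them had already reached 500 and 3 were still at 50 or less. The opposite pattern, at most 50 at 52 h and at least 500 in untreated leaf, was seen in 9 probe sets, with a median of 32.5 at 52 h, against 983 in untreated leaf. Root was the RNA sample in which most of these 9 reached 500 (5 probe sets), but no background share was worked out for root. In 1 of the 9 (11.1%) no RNA sample other than leaf reached 500. This was so for 3.28% of the 6223 probe sets with at least 500 on both microarrays of untreated leaf. The 9 were few and were also chosen as dim at 52 h, so nothing is read from these counts.

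Leaves 4 h and 52 h after treatment were set side by side to see which differences at 52 h were present earlier. Both comparisons used the same untreated leaf microarrays, so their values are not independent. In the 1348 probe sets over 2-fold higher at 52 h, the median signal was 145 in untreated leaf, 384 at 4 h and 549 at 52 h. Their median log2 difference from untreated leaf was 1.23 at 4 h and 1.72 at 52 h. Tested directly, 481 of the 1348 (35.7%) were higher at 52 h than at 4 h, 118 (8.75%) were lower, and 749 (55.6%) were not called. Over all probe sets, 10.9% were called higher at 52 h than at 4 h and 8.38% were called lower, which is the background of these shares, but the members were chosen on the same 52 h microarrays.

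The median decrease at 4 h was nearer to that at 52 h. The 1400 probe sets over 2-fold lower at 52 h had a median signal of 433 in untreated leaf, 140 at 4 h and 131 at 52 h. Their median log2 difference from untreated leaf was −1.54 at 4 h and −1.59 at 52 h. Of these, 292 (20.9%) were lower at 52 h than at 4 h, 177 (12.6%) were higher, and 931 (66.5%) were not called. The contrast between increases and decreases was smaller where microarrays were rescaled. With median centring the medians at 4 h and 52 h were 1.40 and 1.78 for increases and −1.37 and −1.54 for decreases, and with quantile normalization they were 1.32 and 1.71 for increases and −1.34 and −1.52 for decreases. With centring, 424 of the higher probe sets were higher still at 52 h than at 4 h, and 326 of the lower ones were lower still. For the probe sets over 16-fold, the medians in untreated leaf, at 4 h and at 52 h were 28.8, 300.2 and 860.1 on the higher side, and 216, 13.4 and 6.87 on the lower side.

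**Figure D3:**
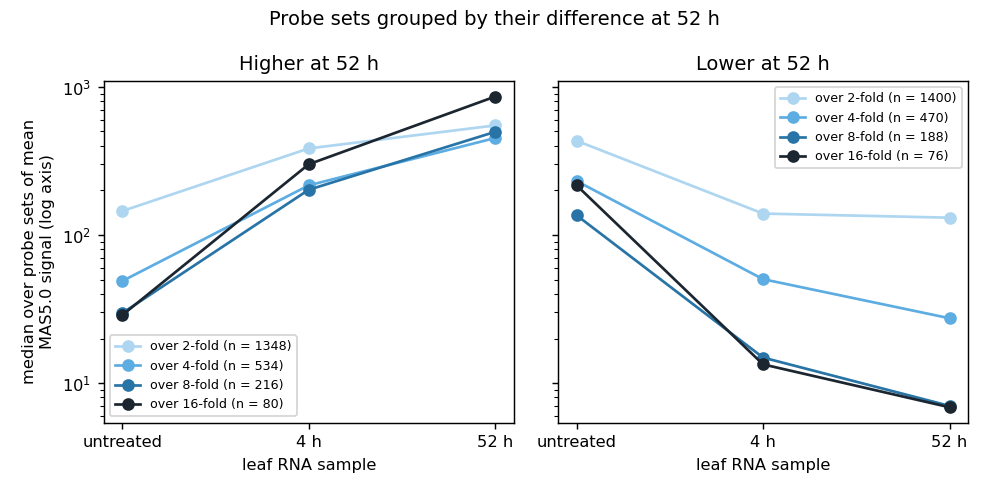
Median MAS5.0 signal (log axis) in untreated leaf and 4 h and 52 h after salicylic acid, for probe sets called at 52 h and grouped by fold. Among probe sets over 2-fold the higher side was at 145, 384 and 549 and the lower side at 433, 140 and 131, so that the step between 4 h and 52 h was larger on the higher side.

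Microarray A at 4 h stood apart in the actin and GAPDH controls. In the actin control, the signal of the 5′ probe set over that of the 3′ probe set was 0.0197 on it, while it was 0.0807 to 0.408 on the other 20 microarrays. The same ratio for the GAPDH control was 0.0973, against 0.440 to 1.11. In a second set of controls (r2), its actin ratio was 0.00865, against 0.428 to 0.824. Its r2 GAPDH ratio was 0.540, against 0.804 to 1.31. Its ubiquitin controls, at 0.315 and 0.524 (r2), lay within the ranges of the other microarrays, 0.213 to 0.567 and 0.454 to 0.836. On leaf 52 h A and B the ratios outside the r2 set were 0.138 and 0.197 for actin and 0.746 and 1.02 for GAPDH. On untreated leaf A and B they were 0.202 and 0.272 for actin and 1.01 and 0.683 for GAPDH. The actin ratios of leaf 52 h thus lay under those of untreated leaf, while the GAPDH ratios overlapped. In the r2 set the actin ratio was 0.689 and 0.824 at 52 h, against 0.658 and 0.617 in untreated leaf. The GAPDH ratio of that set was 0.991 and 1.05 at 52 h, against 1.18 and 1.27 in untreated leaf. The r2 actin ratios were therefore higher at 52 h and the r2 GAPDH ratios lower, with no common direction over the controls. Without microarray A at 4 h, 367 of the 1348 probe sets were higher at 52 h than at 4 h and 81 were lower, and of the 1400, 222 were lower and 115 were higher, which for the last of these counts is a move of over 1.5 times. That count was 107 without leaf 52 h B. Over all probe sets, 7346 (32.3%) were called between 4 h and untreated leaf, 13.4% higher and 18.9% lower, and 4395 (19.3%) between 52 h and 4 h. Centring each microarray on its median moved the share of higher calls to 53.6% from 41.4% for 4 h against untreated leaf, and to 45.9% from 56.7% for 52 h against 4 h, since the median log2 difference of all probe sets was −0.19 and 0.14 in these comparisons.

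Where else the changed transcripts were expressed was read from RNA samples other than those compared. Their microarrays did not enter the differences, but they shared in the estimate of technical spread behind the calls. Probe sets were called preferred in callus, root, silique or wild-type inflorescence if their signal there was at least 200 and at least 4 times that in each of the other tissues of these 4. The silique signal came from a single microarray. This grouping was chosen after the data had been seen and carries no test. The shares farthest above those of all probe sets were of increases in the callus group and of decreases in the root group. Of 528 probe sets preferred in callus, 106 (20.1%) were higher at 52 h and 72 (13.6%) were lower. Of 573 preferred in root, 35 (6.11%) were higher and 115 (20.1%) were lower. For comparison, 10.5% of all probe sets were higher and 12.2% were lower. Of 204 preferred in silique, 21 (10.3%) were higher and 9 (4.41%) were lower, and of 332 preferred in inflorescence, 28 (8.43%) were higher and 22 (6.63%) were lower. These smaller counts depended on single microarrays. Increases in the silique group were 13 without leaf 52 h A or untreated leaf B, and decreases in the inflorescence group were 14 without leaf 52 h A or untreated leaf A and 35 without untreated leaf B.

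The median log2 difference of the root group at 52 h was −0.62, while that of the callus group was 0.14, of the silique group 0.02 and of the inflorescence group −0.08. In the 115 root-preferred probe sets that were lower, the median signal was 44.4 at 52 h, against 172 in untreated leaf, and was 1801 in root. Most were thus dim in leaves, and 52 of the 115 reached 200 in untreated leaf. The whole root group made up 0.891% and 0.865% of the signal on leaf 52 h A and B, against 0.976% and 0.965% on untreated leaf A and B. The median signal of the group on A and B was 80.9 and 59.0 in untreated leaf, 37.1 and 40.1 at 4 h, and 42.9 and 43.1 at 52 h, so both times lay under the untreated leaf. The count of 115 moved with single microarrays. Without leaf 52 h A it was 64, without leaf 52 h B 76, and without untreated leaf A 70. Increases in the root group numbered 21 without leaf 52 h A and 22 without leaf 52 h B, in place of 35. Among the 62 root-preferred probe sets whose mean log2 signal exceeded the median, 17 were called higher and 21 lower, against 1881 higher and 2263 lower of all 11373 such probe sets. Decreases thus outnumbered increases by less among these brighter probe sets than in the whole root group.

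The 106 callus-preferred probe sets that were higher had a median signal of 73.8 in untreated leaf, 455 at 4 h and 362 at 52 h, and of 1834 in callus. The whole callus group made up 1.12% and 1.14% of the signal on untreated leaf A and B, 2.89% on both microarrays at 4 h, and 1.22% and 1.24% on leaf 52 h A and B. In this group the share of signal at 52 h was therefore close to that of untreated leaf. In whole leaves, fewer cells that express a transcript and less RNA per cell cannot be told apart.

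**Figure D4:**
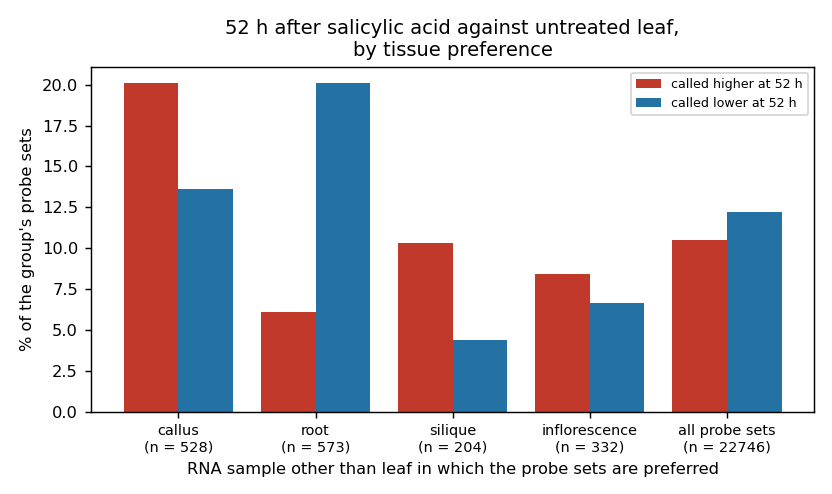
Percent of probe sets called higher (red) and lower (blue) at 52 h against untreated leaf, for groups preferred in callus, root, silique or inflorescence and for all probe sets. The callus group had 20.1% higher and the root group 20.1% lower, against 10.5% higher and 12.2% lower of all probe sets.

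The place of leaf 52 h among all 11 RNA samples was also described, with the microarrays of the comparison itself included. Among the 1348 probe sets over 2-fold higher, leaf 52 h was the highest RNA sample in 475 (35.2%, against 6.89% of all probe sets), and untreated leaf was the lowest in 435 (32.3%, against 10.0%). Both held for 59. Over 16-fold, these shares were 55.0% with leaf 52 h highest and 30.0% with untreated leaf lowest, of 80 probe sets. Among the 1400 over 2-fold lower, untreated leaf was the highest RNA sample in 409 (29.2%, against 9.01%) and leaf 52 h was the lowest in 377 (26.9%, against 10.1%). All these probe sets had been chosen by their difference between leaf 52 h and untreated leaf. Such a choice by itself favours these places, so nothing is read from the contrast with all probe sets. The median signal of the lower probe sets was 131 at 52 h, against 433 in untreated leaf, and 241 to 328 in the RNA samples other than leaf, with root the highest of those. For the higher probe sets it was 549 at 52 h, against 145 in untreated leaf, and 176 to 282 in the RNA samples other than leaf, with root the lowest of those.

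**Figure D5:**
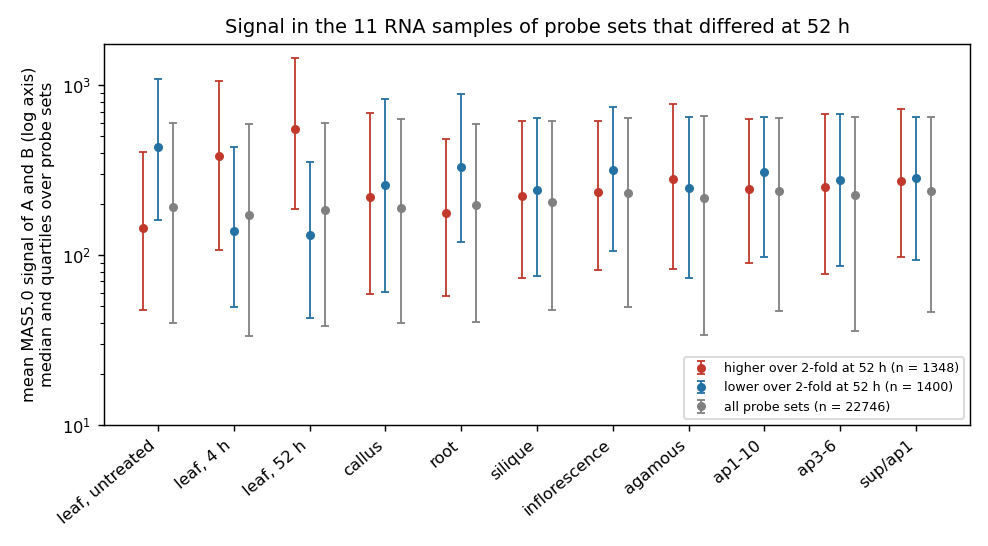
Median MAS5.0 signal (log axis) of the probe sets over 2-fold higher (red) and over 2-fold lower (blue) at 52 h and of all probe sets (grey) in the 11 RNA samples, with bars from the lower to the upper quartile over probe sets. Every RNA sample other than leaf lay between untreated leaf and leaf 52 h, on which the probe sets had been chosen. These samples were at 176 (root) to 282 for the higher and 241 to 328 (root) for the lower probe sets.

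The share of signal taken by the most abundant transcripts depended on where they were chosen. The 100 brightest probe sets of untreated leaf A made up 8.63% and 8.72% of the signal on leaf 52 h A and B, against 10.3% on untreated leaf A and 11.9% on untreated leaf B. Of these 100, 21 were called lower, while 18.5% of the brightest of the 4 brightness groups and 12.2% of all probe sets were. They had been chosen as bright in untreated leaf A, a microarray of the comparison itself, so nothing is read from this count. The 100 brightest of leaf 52 h A, chosen the other way, made up 9.59% and 9.57% of the signal on leaf 52 h A and B, against 8.70% on untreated leaf A and 10.3% on untreated leaf B, so here the untreated microarrays lay on either side. Of those 100, 21 were called higher and 5 lower. In the brightest of the 4 brightness groups 17.2% were called higher and 18.5% lower, and of all probe sets 10.5% and 12.2%. Since leaf 52 h A is also a microarray of the comparison, nothing is read from these counts either.

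Some control probe sets for transcripts of the plant itself were called. The actin 3′ control was 6193 and 6485 on leaf 52 h A and B, against 4082 and 4346 on untreated leaf A and B (log2 difference 0.59, SE 0.16, limma adjusted p = 0.0138 with controls in the fit). The GAPDH 3′ control was 4156 and 4017 at 52 h, against 2541 and 3057 in untreated leaf (log2 difference 0.55, SE 0.16, limma adjusted p = 0.0191). The actin middle control was also called (log2 difference 0.50, SE 0.17, limma adjusted p = 0.0446). These rises were within 2-fold. The other actin and GAPDH controls, those of the r2 set included, had log2 differences of 0.08 to 0.62 and were not called. Those for ubiquitin had log2 differences between −0.21 and 0.05, and were not called. The control for 5S ribosomal RNA, which was dim, fell to 28.1 and 5.21 on leaf 52 h A and B, against 58.2 and 64.4 on untreated leaf A and B (log2 difference −2.34, SE 0.76, limma adjusted p = 0.0357). A control for 25S ribosomal RNA was 318 on untreated leaf B, against 37.8 on untreated leaf A, while both microarrays at 52 h were at 25.6 and 22.5. Its difference was not called (log2 difference −2.19, SE 1.75, limma adjusted p = 0.432), and the part of these controls in the results was not tested.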

How the data were processed

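As deposited by the authors, each ATH1 probe set has a MAS5.0 signal, and every microarray had been brought to a trimmed mean of 500. The median signal was 163 to 240 over the 21 microarrays, whose number limits the precision. The study worked with the TIGR annotation of the genome, and no coordinates are used here. The Agilent microarrays analysed in the series include no leaves treated with salicylic acid, MPSS libraries of these leaves were not analysed here, and detection calls were not used here.

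Log2 signals, with no pseudocount or filter, were fitted with lmFit and eBayes (trend) of limma 3.58.1 in R 4.3.3. One mean was fitted for each RNA sample over all 21 microarrays, which share 1 estimate of technical spread. Benjamini-Hochberg adjustment ran over 22746 probe sets with a threshold of 0.05. The script was tested on simulated data. Figures were drawn with Python 3.11.15, numpy 2.4.6, pandas 2.3.3 and matplotlib 3.10.9.

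The rule for names took the 2 largest increases and the 2 largest decreases among called probe sets with A and B not overlapping between samples and a mean signal of at least 200 in the higher one. Planned lists of genes, marker genes and promoter motifs need a table of probe sets and genes and were not used. Members, lists and groupings were chosen with earlier results of these data known. Alternatives were a filter at the median of mean log2 signal, a pseudocount of 32, quantile normalization, median centring, no trend, fewer microarrays in the fit, a replicate block and leaving out each microarray.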

Additional observations from a re-analysis of the deposited data

Results flagged for a closer look

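Some probe sets were called in opposite directions at the 2 times after salicylic acid, with the difference between the times itself called by limma. They were few. In 73 probe sets (0.321% of those tested) the signal was lower than in untreated leaf at 4 h and higher at 52 h, with a median log2 difference of −0.95 at 4 h and 0.94 at 52 h, and median signals of 487 in untreated leaf, 291 at 4 h and 897 at 52 h. In 21 of these both differences were over 2-fold. In 93 probe sets (0.409%) the signal was higher at 4 h and lower at 52 h, with median log2 differences of 0.95 and −0.85, and median signals of 784 in untreated leaf, 1771 at 4 h and 423 at 52 h. In 17 of these both were over 2-fold. Leaving out single microarrays gave 34 to 76 in place of 73, and 56 to 76 in place of 93. The lowest values, 34 and 56, came without untreated leaf A. Without untreated leaf B the counts were 45 and 57, without leaf 52 h A 47 and 59, without leaf 52 h B 47 and 68, and without microarray A at 4 h, whose actin and GAPDH controls stood apart, 48 and 76. Both times share the untreated leaf microarrays, and each was 1 RNA sample, so a difference in the hour of collection cannot be told apart from the time since treatment.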

How the results depend on the processing

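The count of called probe sets, 5170, was 4144 to 5760 under the 8 alternatives that left out no single microarray. Calls shared with the main fit kept their direction under each alternative. Among probe sets whose mean log2 signal exceeded the median, of which fewer were tested, 1506 were called over 2-fold in place of 2748, and the correlation of replicate ratios was 0.847 in place of 0.427. With a pseudocount of 32 this correlation was 0.754. Leaving out 1 microarray gave 3354 to 5276 called, 2209 to 2829 over 2-fold, 5248 to 6523 for 4 h against untreated leaf and 2814 to 3874 for 52 h against 4 h. The lowest counts, 3354 without leaf 52 h A and 2814 without leaf 52 h B, moved by over 1.5 times, and without untreated leaf A higher calls (2061) outnumbered lower ones (1900), and the cause was not tested. The 4 named probe sets kept their call and direction under every alternative in which they were tested. The labels do not say whether letters A and B mark anything shared between samples, and this was not tested. The correlation of B minus A differences between leaf 52 h and untreated leaf was −0.01. It was −0.03 to 0.13 over 45 pairs of RNA samples. A replicate block gave 5731 calls, 2833 of them over 2-fold. It gave 7904 calls for 4 h against untreated leaf and 4874 for 52 h against 4 h. Each count was above that of the main fit but within 1.5 times of it. Median centring turned the balance of directions, to 2616 higher and 2467 lower. In the dimmest of the 4 brightness groups 5.26% of probe sets were called, against 35.7% in the brightest.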
